A study of Mus musculus with 17 samples.

Results

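The 10 genes described here carry glucose into the cell and through glycolysis: the glucose transporter Slc2a1, the enzymes Hk1, Hk2, Pfkp, Aldoa, Aldoc, Tpi1, Pgk1 and Ldha, and the kinase Pdk1. They were taken by gene symbol from the 16593 genes on a mouse Illumina bead array, where 14 probes carry one of these symbols. Of those probes, 13 were detected on at least 1 array (detection p under 0.01), and each of the 10 genes kept at least 1 probe. A Pfkp probe was detected on 0 arrays and was not tested. Where a gene had several probes, the one with the highest mean level stands for the gene. The 10 genes were chosen with earlier results of these data known. Counts of them set beside shares of all probes are therefore descriptions.

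The study followed mouse somatic cells during the first day of Oct4 expression. The 3 lines with tetracycline-controlled Oct4 (TO) were fibroblasts from embryos (MEF), stem cells of the neural lineage (NSC) and cells of the bone marrow (BMC), each sampled at 0, 6, 12 and 24 h. Wild-type MEF and wild-type NSC were sampled untreated and after 24 h of treatment, and embryonic stem cells (ESC) were sampled once. The labels do not name the inducing agent, give no strain or number of animals, and do not say whether cells of several animals were pooled. They list the 0 h arrays of the Oct4 lines as treated, and 1 label of the 24 h wild-type MEF array carries the number 14. Each of the 17 conditions was measured on 1 array, so nothing shows the spread between cultures of one condition. In such bulk samples a lower signal from fewer cells of a type and one from less RNA per cell cannot be told apart.

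Glycolysis breaks glucose down to pyruvate, and each step has its own enzyme. Hexokinases trap glucose as its phosphate, phosphofructokinase commits it to the pathway, aldolases and triosephosphate isomerase split the sugar and interconvert its parts, and phosphoglycerate kinase makes ATP. Lactate dehydrogenase then reduces pyruvate to lactate, while Pdk1 phosphorylates pyruvate dehydrogenase and so holds pyruvate back from the mitochondria. Pluripotent cells are known for a high glycolytic rate, and the route from somatic to pluripotent cells is known to involve a shift towards it. Hypoxia-inducible factor and Myc are known activators of many of these genes.

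Oct4 (Pou5f1) itself was higher after treatment in all 3 Oct4 lines. Its log2 level in MEF was 8.41 at 0 h and 14.02, 14.33 and 14.49 at 6, 12 and 24 h, so the MEF line held Oct4 signal before treatment. In NSC it was not detected at 0 h and stood at 10.24, 11.20 and 10.22 afterwards, and in BMC it was not detected at 0 h and stood at 11.09, 11.08 and 10.85. It was detected on 0 of the 4 wild-type arrays and stood at 12.94 in ESC. Between 10231 and 11082 of 25697 probes were detected on an array. The 4 Oct4 MEF arrays were dimmer, with mean raw intensities of 382 to 437 against 548 to 672 on the others. Fibroblast markers were detected for 13 to 14 of 14 genes on the MEF arrays. Of 13 neural stem cell markers listed, 11 had a probe and 7 were detected on at least 1 array of the series. The NSC arrays detected each of these 7, but the filter had already dropped the markers found on no array. Myeloid markers were detected for 8 to 11 of 11 genes on the BMC arrays. Those arrays also detected 8 to 10 of the 14 fibroblast markers. Their mean log2 level there was 6.40 to 6.88, against 10.54 to 10.88 in Oct4 MEF. Embryonic stem cell markers were detected for 12 of 12 genes on the ESC array. Of those 12, which include Pou5f1 itself, the Oct4 NSC arrays held 2 to 3 and the wild-type NSC arrays 1 to 2.

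Promoters of 3 genes are shown because these 3 genes carried the tested decline in NSC described further on. RefSeq lists 16 promoters of 300 bases (250 before and 50 after the start, build GRCm38.p6) for the 10 genes. Below are the 250 bases before the first listed start of each, read 5′ to 3′ on the gene's strand. Capitals mark ACGTG or GCGTG, the core bound by hypoxia-inducible factor, on either strand, so that CACGT is ACGTG on the other strand. Hk2 lies on the minus strand at chr6:82774455-82774704, Ldha on the plus strand at chr7:46845554-46845803 and Tpi1 on the minus strand at chr6:124814159-124814408.
Hk2: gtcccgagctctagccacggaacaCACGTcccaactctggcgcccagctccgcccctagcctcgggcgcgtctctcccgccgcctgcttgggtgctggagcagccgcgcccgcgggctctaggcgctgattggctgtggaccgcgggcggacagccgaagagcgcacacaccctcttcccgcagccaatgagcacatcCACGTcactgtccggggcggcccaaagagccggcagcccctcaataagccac
Ldha: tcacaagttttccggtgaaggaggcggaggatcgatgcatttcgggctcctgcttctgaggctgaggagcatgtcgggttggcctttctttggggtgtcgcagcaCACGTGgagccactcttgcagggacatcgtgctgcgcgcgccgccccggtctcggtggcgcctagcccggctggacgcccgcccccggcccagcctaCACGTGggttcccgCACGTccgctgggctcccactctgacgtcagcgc
Tpi1: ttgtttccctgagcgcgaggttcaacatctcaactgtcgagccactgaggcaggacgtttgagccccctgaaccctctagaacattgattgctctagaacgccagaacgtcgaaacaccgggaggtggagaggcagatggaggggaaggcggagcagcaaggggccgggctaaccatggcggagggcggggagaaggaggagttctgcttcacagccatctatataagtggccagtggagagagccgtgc
The Hk2 stretch held 2 matches and the Tpi1 stretch held 0. The Ldha stretch held 5 matches to ACGTG, of which 4 come from 2 copies of the palindrome CACGTG (the E-box read by Myc), each counted on both strands. Over the full 300 bases, ACGTG or GCGTG occurred in 12 of the 16 promoters, against 43.8 percent of all 32851 RefSeq promoters of that length. Overlapping Aldoa promoters among the 12 share the same match. At least 1 promoter of 9 of the 10 genes held a match. That count is per gene, some genes have several promoters, and no share per gene was worked out beside it. The E-box occurred in 1 of the 16, against 7.15 percent of all promoters. The octamer ATGCAAAT, bound by POU factors such as Oct4, occurred in 0 of the 16, against 1.74 percent of all promoters. These matches describe letters in a window and were not tested as binding sites.

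Changes over the day were tested with a straight line fitted through the 4 time points of each Oct4 line, given as the fitted log2 change over 24 h, with p-values adjusted over all 15543 probes tested (Benjamini-Hochberg, threshold 0.05). In NSC, 3 of the 10 genes fell: Hk2, Ldha and Tpi1. In that comparison 11.4 percent of all probes fell and 23.3 percent changed in either direction. In MEF the count was 0 of 10 (11 percent of all probes changed in either direction, 0 members at an unadjusted p under 0.05), and in BMC it was 0 of 10 (0.772 percent of all probes, 1 member, Aldoc, at an unadjusted p under 0.05). A second test, the mean of 6, 12 and 24 h against 0 h, called 0 of 10 in each cell type, with 0 members at an unadjusted p under 0.05 and backgrounds of 0.193 percent in MEF, 0.206 percent in NSC and 0.0322 percent in BMC. The NSC calls rest on the 24 h array. Without it the fitted change was 0.76 for Hk2, 0.46 for Ldha and 0.14 for Tpi1, with adjusted p of 0.855, 0.749 and 0.933. When the wild-type NSC trend was subtracted, the count was 0 of 10 (8.37 percent of all probes). Slc2a1, Hk2 and Ldha had an unadjusted p under 0.05 there. The percentages of all probes given here are at the adjusted threshold. No share of all probes at an unadjusted p was worked out, so the unadjusted counts have no background beside them. All these counts take 1 probe per gene. A second Pfkp probe had fitted changes of -0.62 in MEF (unadjusted p = 0.0204, adjusted p = 0.115) and -0.62 in NSC (0.0205 and 0.0756). With the wild-type trend subtracted it gave -1.03 in MEF (unadjusted p = 0.0086, adjusted p = 0.172) and -0.79 in NSC (0.0322 and 0.154). The dimmest Tpi1 probe gave -0.91 in NSC after subtraction (0.0488 and 0.196).

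**Figure D1:**
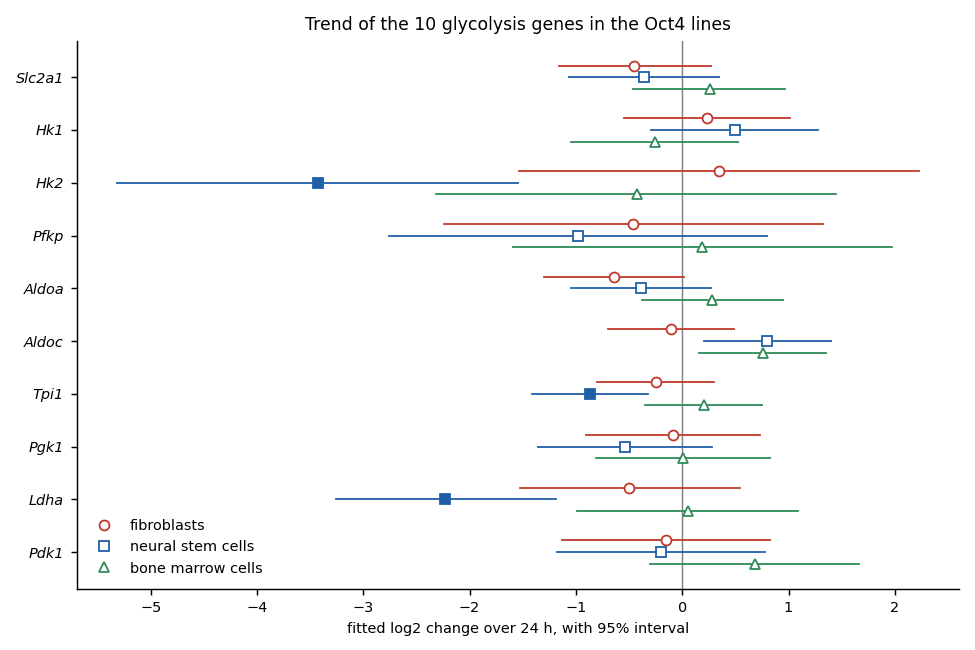
Fitted log2 change over 24 h (horizontal axis) of the 10 genes in the 3 Oct4 lines, with 95% intervals from the limma fit. Filled symbols passed the adjusted threshold: Hk2, Tpi1 and Ldha in NSC, at -3.43, -0.87 and -2.23; the open symbols did not.

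The entry point into the pathway is Slc2a1, the widely used facilitative glucose carrier also called GLUT1. Its log2 level was 12.27 in ESC. In the Oct4 MEF line it stood at 11.05, 10.89, 10.53 and 10.62 from 0 to 24 h, and in wild-type MEF at 10.62 and 10.70. The Oct4 NSC line gave 9.95, 10.33, 10.07 and 9.71 and wild-type NSC 9.80 and 10.62. The BMC line gave 9.53, 9.42, 9.50 and 9.75. The ESC array was thus the highest, by 1.22 over the next array, the MEF arrays followed together with wild-type NSC at 24 h, and the levels of NSC and BMC overlapped. Wild-type NSC were higher at 24 h than at 0 h by 0.83, while Oct4 NSC were lower by 0.24. The fitted change in Oct4 NSC was -0.36 ± 0.33 (SE, adjusted p = 0.507), and with the wild-type trend subtracted it was -1.19 (adjusted p = 0.085).

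The hexokinases Hk1 and Hk2 catalyse the same reaction. Hk2, the inducible form, stood at 8.65, 10.42, 9.04 and 5.86 in Oct4 NSC from 0 to 24 h, and at 8.20 and 8.98 in wild-type NSC. The 6 h array was thus 3.41-fold above 0 h, and the 24 h array lay 23.6-fold below the 6 h array and below every other array of the series. The fitted change was -3.43 ± 0.87 (SE, 95% interval -5.32 to -1.55, adjusted p = 0.0132). The 24 h signal was close to the lowest detected signal of its array, and the size of the drop from 0 h depended on background correction: it was -2.79 with the correction and -1.63 without it. In Oct4 MEF, Hk2 stood at 10.39, 10.43, 10.09 and 10.77, in wild-type MEF at 9.71 and 9.78, and in BMC at 10.94, 11.19, 10.84 and 10.61. Within each of these lines the arrays lay within a narrow band compared with NSC, and the fitted changes were 0.35 in MEF (adjusted p = 0.871) and -0.43 in BMC (adjusted p = 1). The ESC level of 12.66 was above all 16 somatic arrays. Hk1, the constitutive form, was 6.47, 6.72, 7.42 and 6.93 in Oct4 NSC, so its 24 h array lay above 0 h where that of Hk2 lay below. The change of Hk1 minus that of Hk2 was -1.51, 0.57 and 3.25 at 6, 12 and 24 h, with no test. The size of that difference depended on background correction as well. For Hk1 the change from 0 to 24 h was 0.46 with the correction and 0.23 without it. Its fitted change in NSC was 0.50 ± 0.36 (SE, adjusted p = 0.381). Across the 17 arrays the Hk1 probe ranged from 6.07 in Oct4 MEF at 0 h to 7.56 in BMC at 6 h, with ESC at 6.37.

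Pfkp, the platelet form of phosphofructokinase, was near the detection limit in NSC and clearly detected elsewhere. In Oct4 NSC it was not detected at 0 h, stood at 7.53 at 6 h and 6.05 at 12 h, and was not detected again at 24 h. The 6 h level was at least 3.98-fold and the 12 h level at least 1.43-fold above 0 h, and the 24 h level at least 4.01-fold below 6 h, each set against the lowest detected signal of the array without detection. The second Pfkp probe was also detected at 6 h and not at the other times in that line. With that probe, however, the 6 h level was only at least 1.05-fold above 0 h. The straight line over the day gave -0.98 ± 0.82 (SE, adjusted p = 0.461). With 1 array left out at a time, it ran from -3.56 (without the 0 h array, adjusted p = 0.000102) to 2.19. The lower of these values rests on a 24 h signal below detection. Wild-type NSC held Pfkp at 5.98 and 5.91. The Oct4 MEF arrays stood at 8.97, 8.75, 9.04 and 8.44, the wild-type MEF arrays at 8.08 and 8.19, the BMC arrays at 9.14, 9.30, 9.19 and 9.37, and ESC at 10.05. With this probe the BMC arrays lay above the MEF arrays, and both lay above every NSC array. With the second probe MEF and BMC overlapped, at 6.49 to 7.22 and 6.85 to 7.29.

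The aldolases Aldoa and Aldoc cleave fructose 1,6-bisphosphate, and Aldoc is the form of brain and astroglia. Aldoc was 13.31, 13.21, 13.70 and 14.01 in Oct4 NSC and 13.33 and 13.89 in wild-type NSC. The BMC line gave 6.84, 6.86, 7.07 and 7.56 and ESC gave 6.23, while the probe was detected on 0 of the 6 MEF arrays. NSC arrays were thus far above all others, and the 24 h level was the highest of its series in Oct4 NSC, wild-type NSC and BMC alike. The fitted change was 0.80 ± 0.28 (SE, adjusted p = 0.0529) in Oct4 NSC and 0.76 ± 0.28 (SE, adjusted p = 0.564) in BMC, and neither passed the threshold. The NSC value passed in several alternatives, among them the fit on the Oct4 lines alone (adjusted p = 0.0426). The wild-type NSC arrays differed by 0.57 in the same direction, and after subtraction of their trend 0.23 was left (adjusted p = 0.774). Aldoa, the form of muscle and most other tissues, was 11.16, 11.70, 11.68 and 10.90 in Oct4 NSC, higher at 6 and 12 h than at 0 and 24 h. Its wild-type NSC arrays stood at 11.37 and 11.08. In Oct4 MEF it was 11.81, 11.81, 11.63 and 11.21, lowest at 24 h (fitted change -0.64 ± 0.31, SE, adjusted p = 0.217), and in BMC 11.94, 11.96, 12.13 and 12.20.

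Tpi1, which interconverts the 2 three-carbon sugars, had 3 probes. The brightest gave 12.87, 12.93, 12.94 and 12.04 in Oct4 NSC and 13.16 and 12.92 in wild-type NSC. Only the 24 h Oct4 array left the range of the other NSC arrays, and the fitted change was -0.87 ± 0.25 (SE, 95% interval -1.41 to -0.32, adjusted p = 0.0268). The other probes gave -1.09 (adjusted p = 0.0173) and -0.72 (adjusted p = 0.0717). In Oct4 MEF the brightest probe gave 12.97 at 0 h and 12.65 at each later time, and in BMC 12.76, 12.81, 12.72 and 12.97. The ESC level of 11.67 was below all 16 somatic arrays. The dimmest Tpi1 probe went against this, with its highest value, 7.93, in ESC. Pgk1 was detected on 5 of the 17 arrays by its only probe, with ESC highest at 6.57. In Oct4 NSC it was detected at 12 h, at 5.78, and not at 0, 6 or 24 h, so its course there could not be followed at this signal.

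Ldha, the lactate dehydrogenase subunit favoured in glycolytic cells, was, like Hk2, highest at 6 h and lowest at 24 h in Oct4 NSC. It stood at 12.60, 13.14, 12.83 and 10.59 there from 0 to 24 h, and at 12.86 and 12.61 in wild-type NSC. The 24 h level was 5.86-fold below the 6 h level and was the lowest of the 17 arrays. The fitted change was -2.23 ± 0.48 (SE, 95% interval -3.26 to -1.19, adjusted p = 0.00554). In Oct4 MEF the levels were 13.43, 13.36, 13.47 and 12.92, in wild-type MEF 13.22 and 13.18, and in BMC 13.30, 13.42, 13.24 and 13.40. ESC stood at 12.08, above 1 somatic array alone. Pdk1 was 6.56, 7.21, 7.49 and 6.48 in Oct4 NSC, higher at 6 and 12 h than at either end, and in wild-type NSC it was 7.75 at 0 h and 0.75 lower at 24 h. In BMC it was 8.65, 8.19, 8.59 and 9.16, highest at 24 h (fitted change 0.68 ± 0.45, SE, adjusted p = 1), and on the 6 MEF arrays it stayed between 6.75 and 7.20. ESC held it at 9.93, above all somatic arrays.

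**Figure D2:**
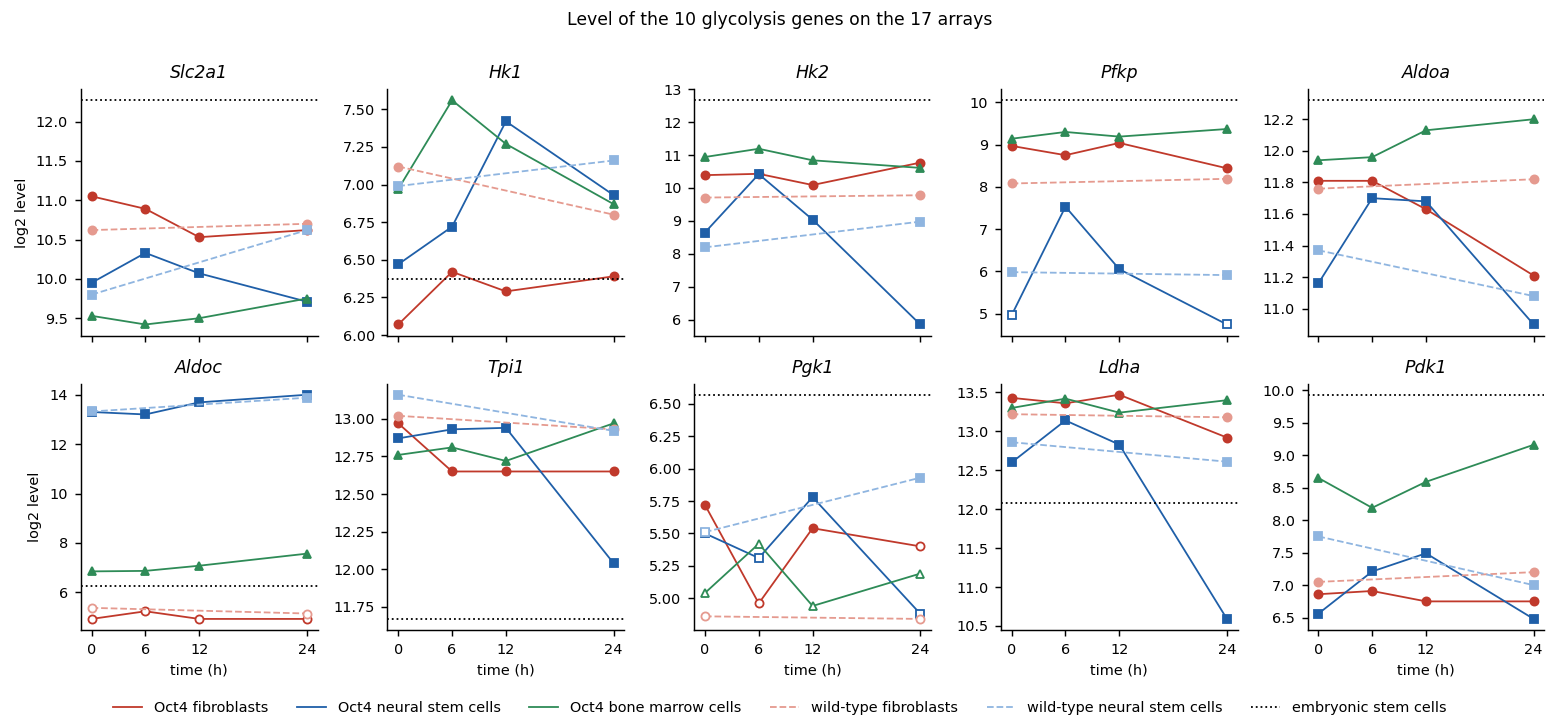
Log2 level (vertical axis, own scale per panel) against time in hours for each gene, with 1 marker per array, solid lines for the Oct4 lines, dashed lines for wild type and a dotted line at the ESC level. Open markers were not detected. In Oct4 NSC, Hk2 and Ldha are highest at 6 h (10.42 and 13.14) and lowest at 24 h (5.86 and 10.59).

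In Oct4 NSC, most of the 10 genes stood above their 0 h level at 6 and 12 h, and most stood below it at 24 h, where Hk1 (0.46) and Aldoc (0.70) did not. At 6 h, 8 of 10 were above 0 h (49.3 percent of all probes), at 12 h 10 of 10 (51.6 percent), and at 24 h 8 of 10 were below (48.3 percent of all probes). Of those 8, Pfkp and Pgk1 were not detected at 0 or 24 h, so the order of their values carries no information. The median change of the 10 genes was 0.46, 0.38 and -0.25 at the successive times, where the median over all probes was 0.00, 0.02 and 0.02. In wild-type NSC the median change after 24 h was 0.05. The highest level fell at 6 h for 5 of 10 genes (Slc2a1, Hk2, Pfkp, Aldoa and Ldha, against 25.1 percent of all probes), and the lowest at 24 h for 8 of 10 (32.5 percent), again with Pfkp and Pgk1 undetected there. At 6 h, 2 of 10, Hk2 and Pfkp, were at least 2-fold above 0 h (1.77 percent of all probes), and at 24 h 2 of 10, Hk2 and Ldha, were at least 2-fold below it (8.24 percent). In wild-type NSC 0 of 10 differed 2-fold between 0 and 24 h (1.51 percent of all probes). As the 10 genes were chosen with earlier results of these data known, these shares are no independent support for a shared course.

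**Figure D3:**
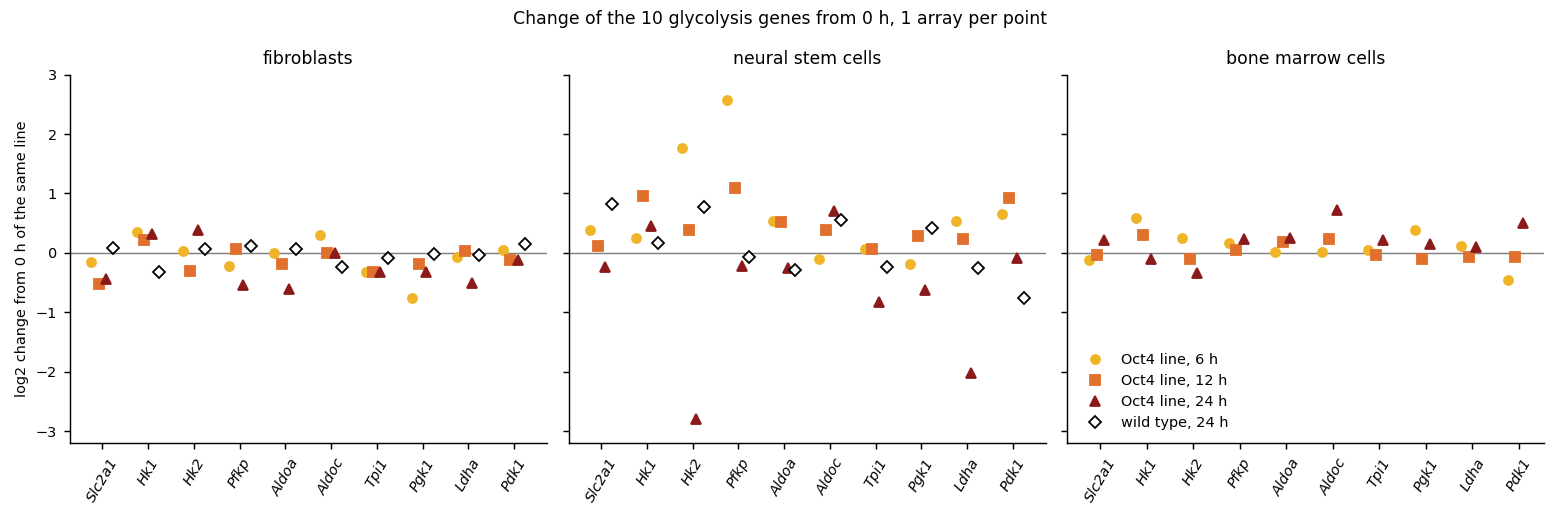
Log2 change from 0 h of the same line (vertical axis) for each gene, with 1 point per array: circles, squares and triangles for the Oct4 line at 6, 12 and 24 h, open diamonds for wild type at 24 h. In NSC the points run from 2.57 for Pfkp at 6 h, whose 0 h array had no detected signal, to -2.79 for Hk2 at 24 h, while no point in MEF or BMC reaches 1 in either direction.

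Because a straight line cannot follow a rise and a fall, a curve with a linear and a quadratic term was fitted as well, a test added after the data were seen. Both terms together were past the threshold for Ldha (adjusted p = 0.000463), Hk2 (0.00161), Tpi1 (0.0199) and Aldoa (0.0325) in NSC, 4 of 10, where 3082 of 15543 probes (19.8 percent) passed. The quadratic term alone passed for Ldha (adjusted p = 0.0193), where 93 probes (0.598 percent) passed, while that of Hk2 had an adjusted p of 0.0609. Neither test called any of the 10 in MEF (8.29 percent of all probes for both terms, 0.116 percent for the quadratic term) or in BMC (0.618 percent and 0 percent). The 24 h array of Oct4 NSC enters all of these fits, and the course was not measured a second time.

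At no time did any of the 10 genes stand 2-fold from its 0 h level in Oct4 MEF (13.6 percent of all probes) or in BMC (2.63 percent). In Oct4 MEF the median change was -0.03, -0.15 and -0.31 over the successive times, and wild-type MEF gave 0.02. In BMC it was 0.08, -0.04 and 0.21. Myeloid granule genes fell in the same BMC arrays, Mpo by at least 72.6-fold at 24 h, and the mean log2 level of the 11 myeloid markers went from 10.75 to 8.70. Marker levels of the BMC arrays thus moved with time, and their part in the levels of the 10 genes was not tested. In Oct4 NSC the mean level of the 7 neural stem cell markers was between 9.82 and 10.54, against 10.93 and 11.17 in wild-type NSC. Of the 7, however, 3 passed the trend test (23.3 percent of all probes). Hes5, a Notch target, rose by 2.31 (adjusted p = 0.00391) and the transcription factor Sox9 by 1.47 (adjusted p = 0.0245), and the fatty acid binding protein Fabp7 fell by 1.46 (adjusted p = 0.0223). Their calls too were lost in some alternatives, among them for Hes5 and Fabp7 without the 24 h array and for Sox9 without the 0 h array. With the wild-type NSC trend subtracted, Hes5 (adjusted p = 0.142) and Sox9 (0.0564) lost theirs and Fabp7 (0.0104) kept it. On the same arrays 1 of the 14 fibroblast markers, Thy1, rose (11.9 percent of all probes). It went from no detection at 0 h to 7.57 at 24 h (trend adjusted p = 0.00303). Of 12 embryonic stem cell markers, 2 fell there, Esrrb and Zfp42 (11.4 percent). In Oct4 MEF, 1 of the 14 fibroblast markers rose (6.11 percent of all probes) and 2 fell (4.89 percent). On the same arrays 3 of the 7 neural stem cell markers fell (Slc1a3, Nes and Sox9). Of 8 neuron and glia markers, 3 rose there (Map2, Stmn2 and Mbp). With the wild-type MEF trend subtracted, 0 genes of these lists were called in MEF (1.14 percent of all probes). The part of these marker changes in the levels of the 10 genes was not tested. Myeloid markers were detected on 0 of the Oct4 NSC arrays. Before treatment, the Oct4 and wild-type lines already differed for some genes: Hk1 was 1.05 lower and Pfkp 0.89 higher in Oct4 MEF than in wild-type MEF, and Pdk1 was 1.18 lower in Oct4 NSC than in wild-type NSC. Those differences rest on 1 array each. Hk1 at 0 h in Oct4 MEF, at 6.07, lay near the lowest detected signal of its array (5.67), which was among the dimmer ones.

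The cell types were compared through the difference of their fitted changes. For Ldha, BMC exceeded NSC by 2.28 ± 0.68 (SE, 95% interval 0.81 to 3.75, adjusted p = 0.0495), the only 1 of the 10 genes past the threshold in that comparison, where 5.63 percent of all probes differed in this direction. The call was lost in 10 of the 12 fits that left out 1 array, and without the 24 h NSC array the difference was -0.41 (adjusted p = 0.813). For Hk2, NSC lay below MEF by -3.78 ± 1.23 (SE, 95% interval -6.45 to -1.11, adjusted p = 0.068), and the difference between BMC and NSC had a 95% interval of 0.33 to 5.67 (adjusted p = 0.142). For Tpi1, BMC exceeded NSC by 1.06 (adjusted p = 0.0772). NSC against MEF gave 0 of 10 past the threshold (background of 11 percent), with 3 members (Hk2, Ldha and Aldoc) at an unadjusted p under 0.05. BMC against MEF also gave 0 of 10 (3.44 percent), with 1 member (Aldoc) at an unadjusted p under 0.05. These percentages are at the adjusted threshold, and no share of all probes at an unadjusted p was worked out. These counts again take 1 probe per gene. The second Pfkp probe gave 1.06 for BMC against MEF (unadjusted p = 0.00713, adjusted p = 0.113). For BMC against NSC it also gave 1.06 (unadjusted p = 0.00716, adjusted p = 0.0593). The falls of Hk2 and Tpi1 in NSC were thus not shown to differ from their course in the other cells.

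ESC were set beside the somatic cells as a description, with 1 array and no test. The ESC level was above all 16 somatic arrays for 6 of 10 genes (21.3 percent of all probes), by 1.22 for Slc2a1, 1.47 for Hk2, 0.68 for Pfkp, 0.12 for Aldoa, 0.64 for Pgk1 and 0.76 for Pdk1. It was below all 16 for 1 of 10, Tpi1, by 0.37 (14 percent of all probes). The same counts of 6 and 1 came from values without background correction and from the authors' values. Hk1 and Ldha were among the lower arrays in ESC, and Aldoc was between MEF and BMC.

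How far the 10 genes moved together was described by correlating their log2 levels, with no test, since the arrays share lines. Over the 17 arrays the median Pearson r of the 45 pairs was 0.07, and 26 pairs were positive. Over the 12 arrays of the Oct4 lines, after subtraction of each line's mean, the median was 0.46, 35 pairs were positive, and the range ran from -0.67 for Hk2 with Aldoc to 0.92 for Tpi1 with Ldha. The 24 h NSC array weighs heavily here: the mean of the 10 genes, with the line's mean subtracted, was -0.14, 0.51, 0.36 and -0.73 over the NSC time course and stayed between -0.11 and 0.11 in MEF and BMC. Among 6742 probes detected on all arrays, the 5 genes most like that mean over the 12 arrays were Nus1 (r = 0.97), Rbm3, Psmb2, Gm5643 and Psmd12 (each r = 0.95). Over the 17 arrays, without subtraction, they were Fbxo28 (r = 0.88), Tsfm (0.82), Rpf1, Mtrf1 and Eif4a1 (each 0.81).

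The neighbouring pathways were followed through lists of other genes, in comparisons where 11.9 percent of all probes rose and 11.4 percent fell in NSC, and 6.11 percent rose and 4.89 percent fell in MEF. Of 12 other glycolysis enzymes measured, 1 rose and 1 fell in MEF and 1 rose and 1 fell in NSC by the trend. Pfkm, the muscle phosphofructokinase, rose by 1.30 ± 0.29 (SE, adjusted p = 0.0123) in MEF. Eno3, the muscle enolase, fell by 1.05 in MEF (adjusted p = 0.0106) and rose in NSC, where it was not detected at 0 h and reached 6.66 at 24 h, at least 2.19-fold higher (adjusted p = 0.000386). Adpgk, an ADP-dependent glucokinase, fell by 1.31 in NSC (adjusted p = 0.0134). Of 6 other glucose and lactate transporters, 1 rose in each of MEF and NSC, the intracellular glucose transporter Slc2a8, by 1.10 (adjusted p = 0.0488) and 1.62 (adjusted p = 0.00399). Pfkfb2, which makes the phosphofructokinase activator fructose 2,6-bisphosphate, rose by 1.01 in NSC (adjusted p = 0.0301), 1 of 3 such regulators.

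On the mitochondrial side, 5 of 14 TCA cycle enzymes fell in NSC and 0 rose. The named ones were Suclg2, a subunit of succinyl-CoA ligase (10.73, 10.39, 9.82 and 8.81 from 0 to 24 h, fitted change -1.96 ± 0.22, SE, adjusted p = 9.38e-05), fumarase Fh1 (-1.36, adjusted p = 0.000651) and malate dehydrogenase Mdh2 (-0.71, adjusted p = 0.0136). Unlike Hk2 and Ldha, Suclg2 and Fh1 were below 0 h at each later time. Of 10 genes for pyruvate entry, 1 rose in NSC, Pdk2, a relative of Pdk1, from no detection at 0 h to 6.39 at 24 h, at least 1.81-fold (adjusted p = 0.0397). By the step test 1 of these 10 fell in MEF, where 0.148 percent of all probes did: Pdk4, a second relative, named after its values were seen. It went from 6.81 at 0 h to no detection at 24 h, at least 2.55-fold lower (adjusted p = 0.0368, from 0.00313 to 0.126 over the alternatives). Of 4 pentose phosphate pathway genes, 1 fell in NSC, the isomerase Rpia, by 1.19 (adjusted p = 0.00931). Of 9 glycogen and gluconeogenesis genes, 2 rose there, the glycogen phosphorylase Pygb (1.82, adjusted p = 0.0319) and glycogenin Gyg1 (1.39, adjusted p = 0.00231).

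Targets of hypoxia-inducible factor outside glycolysis went both ways in NSC, with 4 of 19 higher and 2 lower. Ddit4, an inhibitor of mTORC1, rose by 1.95 (adjusted p = 0.043), the collagen-modifying Plod1 by 1.70 (adjusted p = 0.0233) and the Myc antagonist Mxi1 by 1.56 (adjusted p = 0.0116). The oxygen sensor Egln3 fell by 2.01 (adjusted p = 0.00601) and the circadian repressor Bhlhe40 by 1.32 (adjusted p = 0.02). In MEF 1 of 19 rose, the mitophagy receptor Bnip3l (0.86, adjusted p = 0.0489), and 1 fell, Bhlhe40 (-1.29, adjusted p = 0.0386). Of the 11 genes for hypoxia-inducible factors, their regulators and the Myc family, 4 rose in NSC, among them Mycl by 2.59 (adjusted p = 9.38e-05), the oxygen sensor Egln2 by 2.06 (adjusted p = 0.000716) and Mxd4 by 1.33 (adjusted p = 0.0449). Hif1a had fitted changes of -0.64 in MEF (adjusted p = 0.184), -0.27 in NSC (0.578) and 0.33 in BMC (1). Myc, detected at 0 h in MEF and NSC at 5.92 and 5.74, was not detected at 24 h in either line, which bounds the difference at 1.38-fold or more in MEF and 1.16-fold or more in NSC. Neither trend passed the threshold (adjusted p = 0.226 and 0.0617). In BMC 0 genes of any of these metabolic and hypoxia lists passed the trend test, where only 0.772 percent of all probes did. Of the 19 genes named from these lists in NSC, 3 kept their call without the 24 h array (Egln2, Eno3 and Mycl) and 18 kept their sign. Over all probes, calls in NSC went from 3617 to 555 without that array. After subtraction of the wild-type trend, 8 of the 19 kept their call (8.37 percent of all probes passed). Of the 5 named in MEF, 1, Bhlhe40, kept its call without the 24 h array, and 0 did after subtraction (1.14 percent of all probes). Over all probes, calls in MEF went from 1710 to 396 without the 24 h array.

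**Figure D4:**
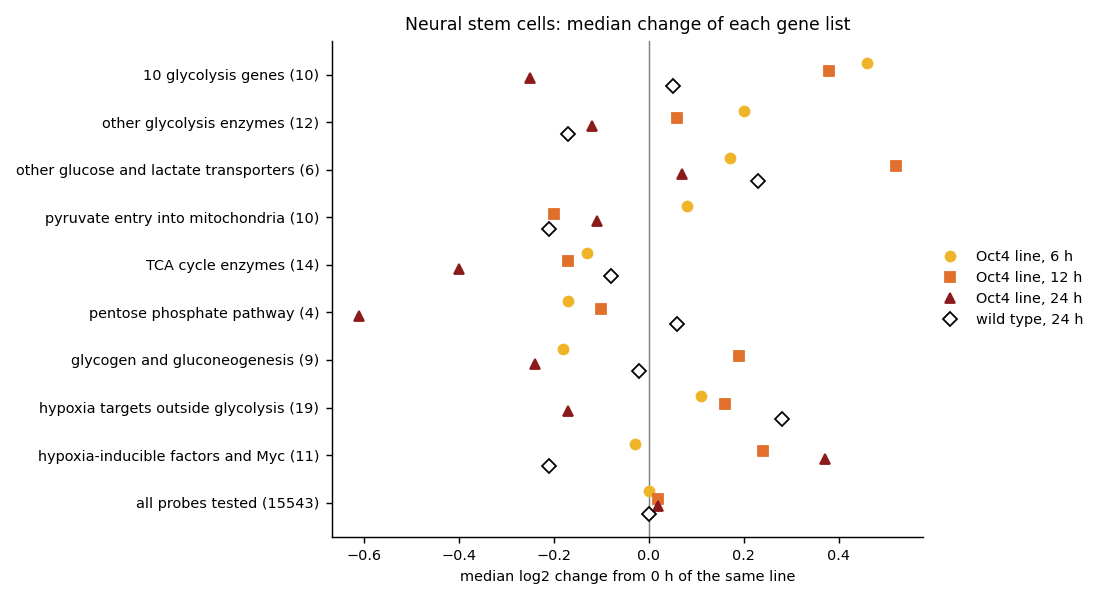
Median log2 change from 0 h (horizontal axis) of each gene list in NSC, with the number of genes or probes measured in brackets: filled symbols for the Oct4 line at 6, 12 and 24 h, open diamonds for wild type at 24 h. The 10 glycolysis genes go from 0.46 at 6 h to -0.25 at 24 h and the TCA cycle enzymes from -0.13 to -0.40, while all probes stay between 0.00 and 0.02.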

How the data were processed

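Total RNA of 17 cell samples was labelled with biotin and hybridised to Illumina mouse bead arrays, per the labels. BeadStudio 3.2, RMA and lumi are named in the submitters' processing notes, with no order. The authors deposited per-probe intensity values that are not normalized, a detection p-value per probe and array, and a log2 value table with the same quantiles on every array. The genome build is not given in the sources used here.

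Intensities were background-corrected (normexp, offset 16, with the negative controls worked out from detection p-values), taken to log2 and quantile-normalized with limma 3.58.1 in R 4.3.3. The 15543 of 25697 probes detected on at least 1 array (p under 0.01) were tested. Of all probes, 23978 carried 1 symbol in the platform annotation and 1719 none. limma was fitted to the 16 somatic arrays with an intercept for each of 5 lines and a slope or step per cell type, which left 8 residual degrees of freedom. The error is therefore the scatter around fitted lines, not between cultures. The wild-type lines had no slope in that fit, so their own differences between 0 and 24 h count as error, except where their trend was fitted and subtracted (6 residual degrees of freedom). The number of arrays limits precision. In folds, an undetected signal is replaced by the lowest detected signal of its array or by itself, whichever is higher, which gives a bound.

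The members and lists were chosen with earlier results of these data known. All 10 members are named. From other lists, genes past 0.05 by the trend are named (Pdk4 is an exception), at most 3 per list, cell type and direction, with Hif1a and Myc always, and Pou5f1 as the induced gene. The tests ran on simulated data first. Figures were drawn with matplotlib 3.10.9. No slide information was used.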

Additional observations from a re-analysis of the deposited data

Results flagged for a closer look

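Ldha is listed because its fitted change over 24 h differed between 2 cell types in a test of the difference itself: BMC exceeded NSC by 2.28 on the log2 scale (adjusted p = 0.0495). The adjusted p ran from 0.000543 to 0.813 over the fits that left out 1 array and from 0.0303 to 0.0987 over the other alternatives. Without the 24 h NSC array the difference was -0.41. That array held Ldha at 10.59 against 12.60 at 0 h, while the BMC arrays lay between 13.24 and 13.42. The same array held the lowest Hk2 level of the series, and what set it apart was not tested.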

How the results depend on the processing

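Of 2031 values of single genes under an alternative, 1792 kept direction and side of the threshold, 131 lost a call, 21 gained one and 6 untested values moved by more than the residual spread. Direction turned for 75 values that passed the threshold in neither setting, 63 of them with 1 array left out and 12 under another alternative, and for 6 values that had been called. Those 6 came from leaving out a 24 h array: without that of Oct4 NSC, Hk2 gave 0.76, Ldha 0.46, Tpi1 0.14 and Pygb -0.47 in NSC, and the Ldha difference between BMC and NSC gave -0.41. Without that of Oct4 MEF, Slc2a8 gave -0.32 in MEF. With 1 array left out at a time, the other ends of these ranges were -6.12 for Hk2, -3.55 for Ldha, -1.28 for Tpi1 and 3.45 for Pygb, 3.61 for the Ldha difference and 1.68 for Slc2a8. The cause was not tested. The count of members past the threshold in NSC, 3 by the trend, ran from 0 (without the 24 h array) to 5 (without the 0 h array, with Aldoa and Pfkp added) when 1 array was left out. It was 0 with the wild-type trend subtracted, with Hk2 at -4.21 (adjusted p = 0.0795) and Ldha at -1.98 (adjusted p = 0.132). For BMC against NSC, 1 member became 0 with all probes tested and with the authors' values, and 2 without background correction, with offset 50 and with probes detected on every somatic array. With 1 array left out, which was added after seeing the data, it ran from 0 to 5 and the count for NSC against MEF from 0 to 3.

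Counts over all probes moved as follows. By the trend, MEF (1710) gave 1065 with the authors' values, 1009 with probes detected on every somatic array, 177 with the wild-type trend subtracted and 396 to 1627 with 1 array left out. NSC (3617) gave 1301 with the wild-type trend subtracted and 555 to 3740 with 1 array left out. BMC (120) gave 54 with the authors' values, 0 with probes detected on every somatic array and 23 to 119 with 1 array left out. By the step, MEF (30) gave 13 with 75th percentile scaling, 64 with all probes, 16 with the authors' values, 1 with probes detected on every array and 8 to 425 with 1 array left out; NSC (32) gave 19, 1 and 15 to 986 in the last 3 of these; BMC (5) gave 0 with probes detected on every array and 5 to 27. The differences gave, with the authors' values, 162 for BMC against MEF (535), 940 for BMC against NSC (1668) and 1099 for NSC against MEF (1708). They gave 92 and 921 for the first and last with probes detected on every somatic array, 342 for the first with 75th percentile scaling, and 18 to 567, 25 to 2579 and 415 to 2301 with 1 array left out.

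No paired analysis was possible because each condition has 1 array and all carry the same replicate number. The slide as a block was not run, and a step could not be fitted without a line's 0 h array. Signal over background limits Pgk1 in all lines, Pfkp in NSC and Aldoc in MEF.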
